A study of Mus musculus with 30 samples.

Results

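Neonatal salivary tissue of mice without estrogen-related receptor gamma (ERRγ) was compared with that of wild-type mice on Affymetrix MOE430A arrays, which read each transcript with 1 or more probe sets. The comparison rests on 6 of the 30 arrays of the series: 3 labelled knockout and 3 labelled wildtype, chosen by tissue and genotype in their titles, and on all 22626 probe sets that are not array controls. The other 24 arrays hold brain, kidney, stomach and liver of the same genotypes. All mice were of mixed SV129/C57BL/6 background and of unknown gender, were kept on standard chow with no treatment, and gave total RNA extracted with Trizol. The knockout is called null here, and the labels do not state which part of the gene was deleted. Nothing in the labels states that arrays of 1 group are different animals. The p-values therefore measure only the spread between these samples, and that spread may be technical in part. Xist, a transcript of female cells described below, was low in 1 salivary array of each genotype and high in the others. The arrays of a genotype thus do not all share 1 animal, and how many animals they stand for is not stated.

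The product of Esrrg, ERRγ, is an orphan nuclear receptor, a transcription factor with no known natural hormone that binds DNA at the extended site TCAAGGTCA. With its relatives ERRα and ERRβ and the coactivators PGC-1α and PGC-1β it drives genes of mitochondrial respiration and fatty acid oxidation in heart, muscle and brown fat. The salivary gland is built of acini, whose cells secrete a protein-rich saliva, and of ducts, which modify its salts and add proteins such as the kallikreins. In the newborn the gland is still dividing and branching, and it lies in the neck beside pads of brown fat, a tissue that burns fatty acids for heat through the uncoupling protein Ucp1.

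Gland transcripts were abundant on all 6 arrays. Values are log2 signals, so that a difference of 1 is a 2-fold change. Bpifa2, a secreted protein of the parotid and sublingual glands, read 13, 12.88 and 12.92 in wild-type arrays and 12.66, 13.05 and 12.73 in null arrays (replicates 1, 2 and 3 in each list of values that follows). Prol1, another salivary secretory gene, read 12.53, 12.52 and 12.45 in wild-type arrays and 12.19, 12.40 and 12.39 in null arrays. The 2 genotypes overlapped for Bpifa2 and stood close for Prol1, and neither difference passed the test (limma, adjusted p = 0.617 and 0.370). Lactoperoxidase Lpo, an antimicrobial enzyme of saliva, read 12.09, 11.87 and 11.80 against 11.32, 11.55 and 11.69, a difference of -0.40 that did not pass either (limma, adjusted p = 0.104).

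Brown fat transcripts differed widely between arrays of the same genotype. Ucp1 read 5.99, 4.04 and 12.14 in wild-type arrays and 11.31, 12.75 and 11.02 in null arrays. It was therefore high in all 3 null arrays and in 1 of the 3 wild-type arrays, replicate 3, and low in the other 2, so the groups overlapped. The 24 arrays of the other tissues read 0.52 to 3.08, so every salivary array lay above them. The mean was 7.39 ± 4.23 in wild-type arrays and 11.69 ± 0.93 in null arrays (SD, n = 3), and the difference of 4.30 ± 1.64 (SE) did not pass (limma, Benjamini-Hochberg adjusted p = 0.147). Permuting the 6 arrays gave p = 0.3 (exact permutation test, two-sided), where 0.1 is the smallest it can give. Without wild-type replicate 3 the difference was 6.68 and passed (limma, adjusted p = 0.000451), and without wild-type replicate 2 it was 2.63.

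Cidea, a lipid droplet protein of brown fat, and Cox8b, a cytochrome oxidase subunit of muscle and brown fat, had the same order of arrays as Ucp1 among the wild-type samples. Cidea read 4.64, 4.11 and 9.21 in wild-type arrays and 8.71, 10.38 and 8.46 in null arrays. Cox8b read 3.62, 2.64 and 8.02 against 8.05, 8.66 and 7.58. Again wild-type replicate 3 lay among the null arrays and the other 2 lay below them. Of the 16 brown fat genes on the array 13 passed the filter on low values, 0 passed the test (limma), and all 13 differences were positive with a median of 0.68. Their signals, added up on the linear scale, came to 1114, 1038 and 7132 in wild-type arrays and 5600, 11190 and 4497 in null arrays. Adipoq, which encodes the fat hormone adiponectin, read 8.36, 8.74 and 10.63 against 10.2, 11.66 and 10.61, and the fat regulator Pparg read 1.92, 1.38 and 6.98 against 7.41, 8.27 and 7.32 (difference 4.24; limma, adjusted p = 0.0627). In bulk tissue, more cells of a type and more RNA per cell cannot be told apart.

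**Figure D1:**
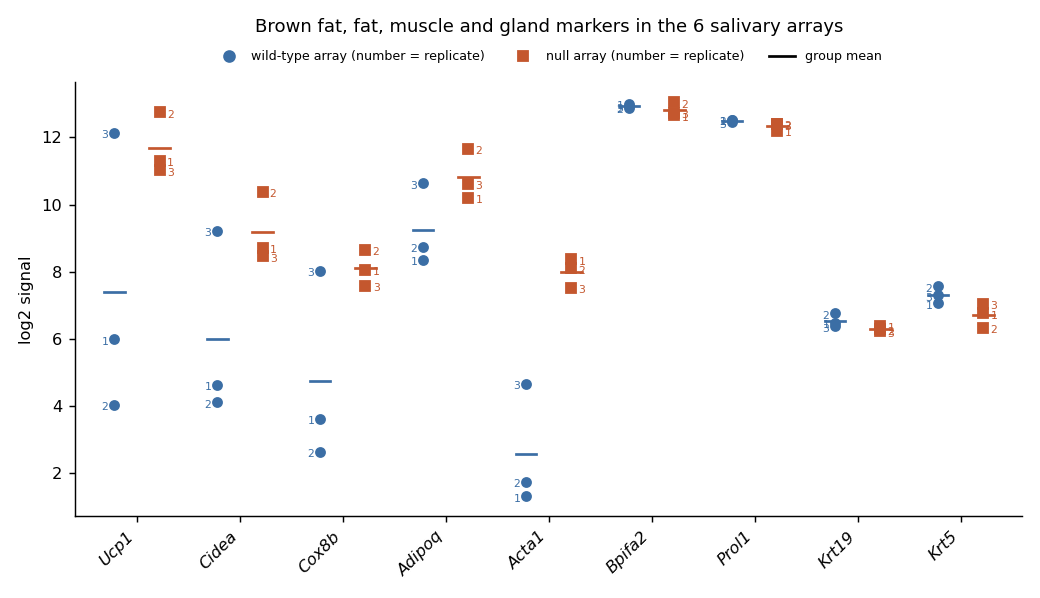
Log2 signal of 9 marker genes in each of the 6 salivary arrays (circles, wild-type; squares, null; numbers give the replicate and short lines the group mean). Ucp1, Cidea, Cox8b and Adipoq were high in the 3 null arrays and in wild-type replicate 3, Acta1 of skeletal muscle was high in the null arrays, and the gland genes Bpifa2, Prol1 and Krt19 differed little between arrays.

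Among skeletal muscle transcripts most lay under the filter. Acta1, the main actin of skeletal muscle, read 1.31, 1.74 and 4.66 in wild-type arrays and 8.37, 8.10 and 7.52 in null arrays and was not tested, because its mean lay under the filter. The groups did not overlap, and wild-type values were near the bottom of the scale. The summed linear signal of the 29 muscle markers was 583.4 to 792.6 in wild-type arrays and 1164 to 2159 in null arrays, with no overlap. Of the 8 muscle markers that passed the filter 2 rose, where 3.5% of all tested probe sets did, the giant sarcomere protein Ttn (2.94) and the calcium pump Atp2a1 (1.94), and 6 did not pass. Atp2a1 did not pass without any 1 of the null arrays. Summed signals of lymphoid markers (659.5 to 811 in wild-type, 739.8 to 828.9 in null arrays) and endothelial markers (1191 to 1696 and 1580 to 1972) overlapped. Those of erythroid markers did not, at 200.6 to 270.6 in wild-type and 289.5 to 411.2 in null arrays. Sums of acinar, basal and gland development genes, given below, did not overlap either. The part of brown fat or muscle content in the differences described next was not tested as a cause. Counts are therefore given also with each array's Ucp1 level as a covariate and against wild-type replicate 3 alone, that is, without the 2 wild-type arrays of low Ucp1. In that last fit the lone wild-type array is assumed to vary like the null arrays.

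Array medians lay between 5.90 and 6.08. The 3' minus 5' gap of the Gapdh control, a measure of RNA integrity, was 3.24 ± 0.19 in wild-type arrays and 3.05 ± 0.28 in null arrays (SD, n = 3), and the gaps overlapped. Correlations over all probe sets were 0.936 to 0.954 within a genotype and 0.924 to 0.944 between genotypes. Xist, expressed from the inactive X chromosome of female cells, was low in wild-type replicate 3 (3.79) and null replicate 1 (4.40) and between 9.78 and 10.15 in the other 4 arrays. The wild-type array with high Ucp1 was thus also the one with low Xist.

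Of 13576 tested probe sets 1116, or 8.22%, passed (limma, adjusted p under 0.05). Higher values in null tissue were found for 475 (3.5%), standing for 382 named genes, and lower values for 641 (4.72%), standing for 449. By 4-fold or more 43 were higher and 23 lower, and the median difference of all tested probe sets was 0.02. Null and wild-type values were fully separated for 28.18% of tested probe sets and for all that passed. The count depended on single arrays: it was 317 without wild-type replicate 2, 510 without null replicate 1, 532 without wild-type replicate 1 and 533 without null replicate 3. It was 752 without wild-type replicate 3, where the falls numbered 388, and 1359 without null replicate 2.

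The count was smaller in both fits that take account of Ucp1. With Ucp1 as a covariate 276 passed, 265 of them among the 1116, and all 1116 differences kept their sign. Against wild-type replicate 3 alone 26 passed, all among the 1116. That fit differs from the main one both in Ucp1 level and in having 1 wild-type array in place of 3, and these cannot be told apart in its count. Leaving out wild-type replicate 2 alone had already brought the count to 317.

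**Figure D2:**
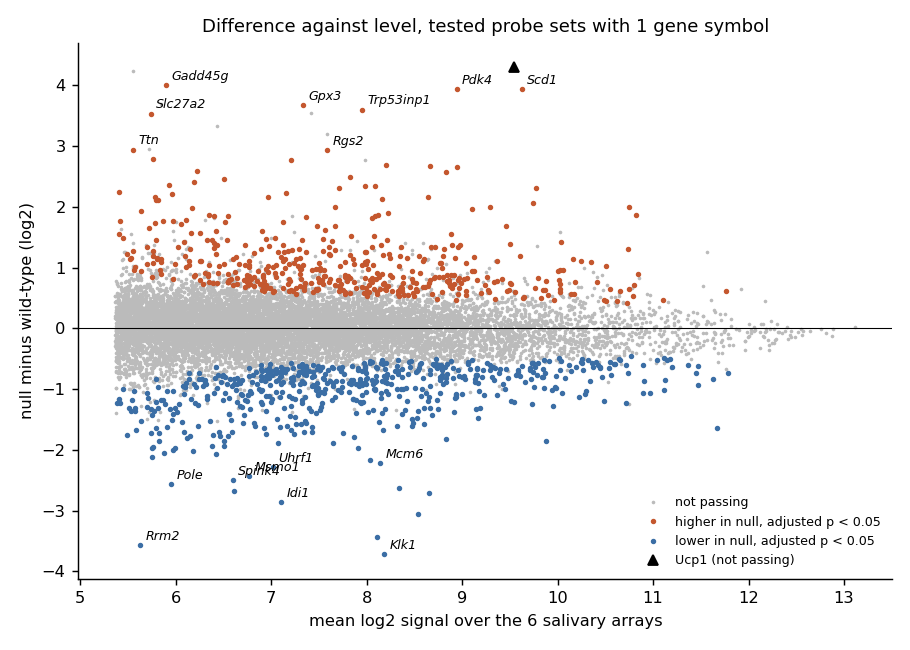
Null minus wild-type difference (log2) of each tested probe set with 1 gene symbol against its mean log2 signal over the 6 salivary arrays; coloured points passed the test, grey points did not, and the triangle is Ucp1. The named rises reach 4.0 (Gadd45g) and the named falls -3.72 (Klk1), while Ucp1, at 4.30, did not pass.

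Among the largest rises were regulators of lipid and fuel use. Scd1, the desaturase that makes monounsaturated fatty acids, read 7.74, 7.76 and 7.46 in wild-type arrays and 10.86, 12.19 and 11.74 in null arrays. No null array came within 3 log2 units of a wild-type array, and wild-type replicate 3 was the lowest of all. The difference was 3.94 ± 0.29 (SE; limma, adjusted p = 0.000308), and it was 4.14 against wild-type replicate 3 alone (limma, adjusted p = 0.0246). Lpin1, a phosphatidate phosphatase and transcriptional coactivator, read 7.81, 7.29 and 7.75 against 10.38, 9.92 and 10.50 and rose by 2.65 ± 0.20 (limma, adjusted p = 0.000339). Pdk4, the kinase that shuts off pyruvate dehydrogenase when fat is burned, read 6.22, 5.72 and 8.97 against 10.78, 11.18 and 10.78. Here wild-type replicate 3 stood between the other wild-type arrays and the null arrays. Its rise was 3.94 ± 0.68 (limma, adjusted p = 0.00953), 2.20 with Ucp1 as a covariate and 1.94 against wild-type replicate 3 alone.

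Large rises were also found in genes of other functions. Trp53inp1, a p53 target with roles in arrest and autophagy, read 6.39, 5.47 and 6.58 in wild-type arrays and 10.04, 9.17 and 10.03 in null arrays. Its groups lay far apart, with a difference of 3.60 ± 0.32 (limma, adjusted p = 0.00064). Rgs2, an inhibitor of G protein signalling, read 5.75, 5.85 and 6.74 against 9.16, 9.13 and 8.86 and rose by 2.94 ± 0.25 (limma, adjusted p = 0.000575). Gadd45g, a growth arrest and DNA damage gene, read 3.08, 2.58 and 6.03 against 8.15, 7.79 and 7.75, a rise of 4.0 from wild-type values mostly under the filter level of 5.37, so background bounds its size (limma, adjusted p = 0.0126). The call was lost when replicate 1 of either genotype was left out, and the difference was 2.21 with Ucp1 as a covariate. Hdc, the enzyme that makes histamine, read 4.43, 4.56 and 4.12 against 7.74, 5.93 and 7.81, with null replicate 2 the lowest null array (2.79; limma, adjusted p = 0.00799). The transcription factor Cebpd read 7.16, 7.72 and 7.10 against 10.55, 9.22 and 10.23, with null replicate 2 again lowest (2.67; limma, adjusted p = 0.00217).

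The remaining large rises were the plasma glutathione peroxidase Gpx3 (3.68), the fatty acid transporter Slc27a2 (3.54), the sarcomere gene Ttn (2.94) and the peroxisomal enzyme Ehhadh (2.77). The glucocorticoid-induced leucine zipper Tsc22d3 (2.49), Bpifb2 (2.59), a relative of Bpifa2, and Tmem140 (2.47) completed the 15. Wild-type values of Slc27a2, Ttn, Bpifb2, Tmem140 and Hdc averaged under the filter level of 5.37, so background bounds their folds. In Gpx3 and Slc27a2 wild-type replicate 3 was the highest wild-type array, at 7.25 and 5.94. With Ucp1 as a covariate these differences were 1.98 and 1.44. Slc27a2 passed in only 1 of the 6 fits that each left out an array, that without wild-type replicate 3. Gpx3 did not pass without wild-type replicate 1, null replicate 1 or null replicate 3, nor did Bpifb2. Ehhadh did not pass without wild-type replicate 2. Ttn, Rgs2, Hdc, Cebpd, Lpin1, Tsc22d3, Tmem140, Scd1, Pdk4 and Trp53inp1 passed in all 6 such fits.

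The largest fall was that of Klk1, tissue kallikrein, a protease made by duct cells. It read 10.73, 9.76 and 9.64 in wild-type arrays and 7.05, 5.62 and 6.30 in null arrays, with no overlap. The difference was -3.72 ± 0.37 (limma, adjusted p = 0.00118), and the 2 other probe sets of the gene gave -3.43 and -3.06. It passed without each array in turn. Kallikrein paralogs are near-identical and may share signal: the paralog Klk1b11 fell by 1.16 (limma, adjusted p = 0.0471), and Klk1b24 differed by -0.33 (limma, adjusted p = 0.569). Spink4, a secreted protease inhibitor, read 7.97, 8.28 and 7.29 against 5.40, 4.96 and 5.68 and fell by 2.50 (limma, adjusted p = 0.00174).

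The other named falls began with Rrm2. Rrm2, the small subunit of ribonucleotide reductase, which makes the building blocks of DNA, read 9.89, 10.18 and 9.96 at its brightest probe set in wild-type arrays and 7.10, 7.63 and 7.17 in null arrays. Values within a genotype spanned well under 1 log2 unit, while the groups stood far apart. The difference was -2.71 ± 0.17 (limma, adjusted p = 0.000168), and a dimmer probe set, whose null values lay under the filter level, gave -3.57. Uhrf1, which maintains DNA methylation at the replication fork, read 7.96, 8.31 and 8.21 against 5.63, 6.21 and 5.78 (-2.29 ± 0.20; limma, adjusted p = 0.000575). Mcm6, a subunit of the replicative helicase, read 9.11, 9.35 and 9.28 against 6.38, 7.59 and 7.11 (-2.22; limma, adjusted p = 0.00231). The replicative polymerase subunit Pole (-2.56), the repair genes Rad54l (-2.12) and Fen1 (-2.06), thymidine kinase Tk1 (-2.07), the chromatin remodeller Hells (-2.01), the checkpoint kinase Chek1 (-2.0) and the histone chaperone Dnajc9 (-1.97) fell too. Null values of Pole, Spink4, Rad54l, Fen1, Hells and Chek1 at these probe sets averaged under the filter level, so background bounds their folds. Pole and Rad54l did not pass without wild-type replicate 2. Psat1, an enzyme of serine synthesis, read 9.10, 9.23 and 9.01 against 6.46, 7.0 and 7.38 (-2.17; limma, adjusted p = 0.00118). The sterol enzymes Idi1 and Msmo1 completed the 15 and are described with their pathway.

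Proliferation genes were lower in null tissue as a group. The gene groups here and below were chosen with earlier results of these data known. Their counts therefore describe these arrays and test nothing further. Of 34 tested cell cycle genes 25 fell and 0 rose, and all 34 differences were negative with a median of -0.95, against falls in 4.72% and a median of 0.02 over all tested probe sets. Their summed linear signal was 12750 to 14460 in wild-type arrays and 5551 to 6105 in null arrays, so all wild-type arrays, rich or poor in Ucp1, lay above all null arrays. Cdk1, the kinase that drives cells into mitosis, read 9.11, 9.32 and 9.34 against 7.78, 7.53 and 7.81 (-1.55 ± 0.15; limma, adjusted p = 0.000804). Pcna, the sliding clamp of DNA polymerase, read 10.73, 10.78 and 10.91 against 8.61, 9.39 and 8.87 (-1.85; limma, adjusted p = 0.00118). Rrm1, the large subunit beside Rrm2, read 8.97, 9.12 and 9.27 against 7.51, 7.64 and 7.38 (-1.61; limma, adjusted p = 0.00066). In each of these genes the lowest wild-type array lay more than 1 log2 unit above the highest null array.

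The group held genes of replication and of mitosis. All 6 helicase subunits fell: Mcm2 (-1.37), Mcm3 (-1.62), Mcm4 (-1.61), Mcm5 (-1.40), Mcm6 (-2.22) and Mcm7 (-0.99). Among mitotic genes the spindle checkpoint kinase Bub1b (-1.95, its null values averaging under the filter level) and the kinase Melk (-1.78) had the largest falls, and Bub1b did not pass without wild-type replicate 2. The topoisomerase Top2a (-1.19), the cyclin Ccna2 (-0.99), the anaphase activator Cdc20 (-1.11) and the survivin gene Birc5 (-1.13) fell and passed without each array in turn. The proliferation antigen Mki67 read 9.24, 9.83 and 9.26 against 8.78, 8.28 and 8.79 and fell by 0.83 (limma, adjusted p = 0.0401), and it did not pass when any array was left out. The count of falls was 14 without wild-type replicate 2, 13 with Ucp1 as a covariate and 2, Rrm1 and Rrm2, against wild-type replicate 3 alone, where the median was -1.01.

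The promoter of Cdk1 is shown because it holds both elements known to restrain genes of the cell cycle in resting cells, an E2F element and the cell cycle homology region (CHR). The sequence gives the 150 bases before the start of the gene in RefSeq on GRCm38.p6, chr10:69352913-69353062 on the minus strand, with the matches in capitals. The E2F match begins 131 bases before the start and the CHR matches 71 and 15 bases before it.
Cdk1: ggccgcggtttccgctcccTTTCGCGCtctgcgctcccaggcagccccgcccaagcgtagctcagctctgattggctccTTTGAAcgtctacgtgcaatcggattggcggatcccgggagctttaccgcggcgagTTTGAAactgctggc
Motifs were searched on both strands in the 250 bases before each start. Of the 25 cell cycle genes that fell 21 had a sequence, and 4 of these, Cdk1, Mcm5, Mcm6 and Mcm7, held an E2F element (TTTCCCGC, TTTGGCGC, TTTGCCGC or TTTCGCGC), or 19.0% against 2.16% of all 27025 genes. A CHR element (TTTGAA) stood in 8 (38.1% against 18.3%) and a CCAAT box in 17 (81.0% against 37.5%). The CCAAT share lay above 37.5% in every other set searched too, whether its genes rose or fell. It was 57.1% in glucocorticoid-responsive and 66.7% in fasting response genes that rose, both groups described below. An excess of CCAAT boxes was thus not particular to the falling cell cycle genes. Motif shares here and below are set against all genes, not against those tested on the array. A match describes these letters in this window and does not show binding.

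**Figure D3:**
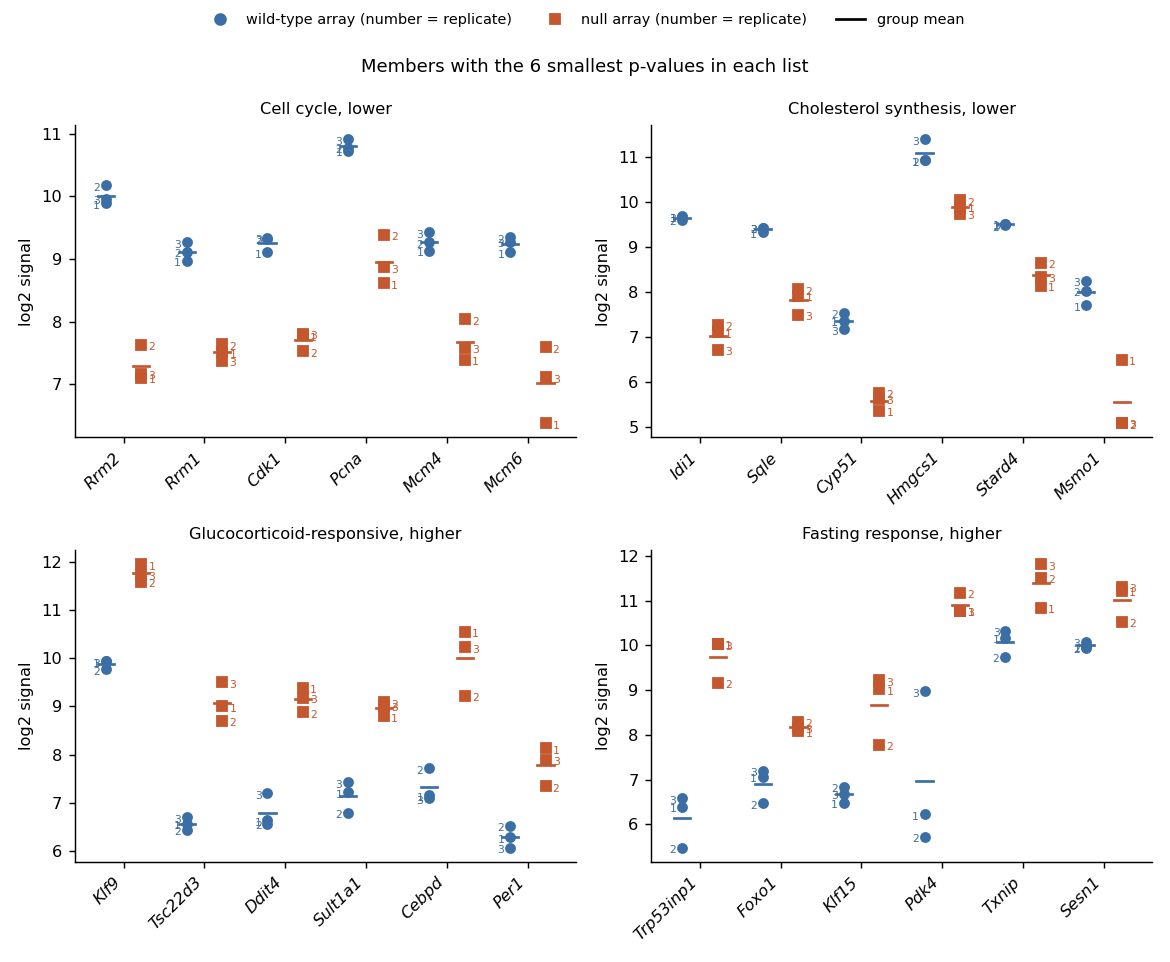
Log2 signal in each salivary array (circles, wild-type; squares, null) of the 6 members with the smallest p in each of 4 gene groups: cell cycle, cholesterol synthesis, glucocorticoid-responsive and fasting response. In the cell cycle and cholesterol panels the wild-type arrays lie above the null arrays, as with Cdk1 at 9.11 to 9.34 against 7.53 to 7.81, and in the glucocorticoid panel the order is the reverse, as with Klf9 at 9.77 to 9.94 against 11.59 to 11.95.

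Part of the cholesterol synthesis genes fell in null tissue. Of 18 tested members 8 fell, against 4.72% of all tested probe sets, 0 rose and 10 did not pass, at a median of -0.72 and a summed linear signal of 6936 to 7773 in wild-type arrays and 3299 to 3926 in null arrays. Idi1, which makes the isoprenoid unit of sterols, read 9.67, 9.60 and 9.68 in wild-type arrays and 7.10, 7.27 and 6.71 in null arrays at its brightest probe set. The difference of -2.62 ± 0.17 had the same adjusted p as that of Rrm2 (limma, adjusted p = 0.000168), and a dimmer probe set gave -2.86. Hmgcs1, the first enzyme committed to the pathway in the cytosol, read 10.93, 10.93 and 11.39 against 9.89, 10.04 and 9.74 (-1.19 ± 0.16; limma, adjusted p = 0.00325). Squalene epoxidase Sqle read 9.32, 9.42 and 9.42 against 7.91, 8.06 and 7.49 (-1.57; limma, adjusted p = 0.00141). No array of either genotype fell into the range of the other in these genes.

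Later enzymes fell as well: the sterol demethylase Cyp51 (-1.77), the methyl oxidase Msmo1 (-2.44), lanosterol synthase Lss (-0.90) and Nsdhl (-0.75), and with them the cholesterol carrier Stard4 (-1.13). Lss and Nsdhl did not pass in 3 and 4 of the 6 fits that each left out an array, the other 6 passed in all. With Ucp1 as a covariate 6 of the 8 passed, and against wild-type replicate 3 alone 1 did, Idi1 (-2.65; limma, adjusted p = 0.0246). These enzymes share the transcription factor SREBP2, which binds sterol elements. The promoter of Hmgcs1 is shown because it was the only one among the 6 of the 8 falling genes with a sequence that held the searched sterol element (TCACNCCAC), a motif found in 1.23% of all genes. That element was in 1 gene each of the fasting response genes that rose (11.1%), the 15 largest rises (8.33%) and the 15 largest falls (7.69%) too. In the other sets searched it was in 0, and it was thus not particular to falling sterol genes. The Hmgcs1 promoter lies in RefSeq on GRCm38.p6 at chr13:119690201-119690350 on the plus strand, and its match, in capitals, begins 137 bases before the start.
Hmgcs1: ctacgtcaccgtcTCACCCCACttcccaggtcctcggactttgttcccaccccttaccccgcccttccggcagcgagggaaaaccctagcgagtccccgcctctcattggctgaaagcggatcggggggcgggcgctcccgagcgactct

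Genes that respond to glucocorticoid hormone rose. Of 20 tested members 15 rose, 0 fell and 5 did not pass, against rises in 3.5% of all tested probe sets. All 20 differences were positive, with a median of 1.47, and the summed linear signal was 9016 to 9466 in wild-type arrays and 18980 to 26340 in null arrays. Klf9, a transcription factor induced by glucocorticoid and thyroid hormone, read 9.94, 9.77 and 9.94 in wild-type arrays and 11.95, 11.59 and 11.73 in null arrays (1.87 ± 0.13; limma, adjusted p = 0.000284). Tsc22d3 read 6.57, 6.45 and 6.70 against 9.0, 8.70 and 9.50 (2.49 ± 0.21; limma, adjusted p = 0.000529). Ddit4, an inhibitor of the growth kinase mTORC1, read 6.64, 6.57 and 7.2 against 9.39, 8.88 and 9.18 (2.35; limma, adjusted p = 0.00064). In these genes wild-type replicate 3 lay with the other wild-type arrays, far below the null arrays.

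The group also held the cell cycle inhibitor Cdkn1a, which read 5.82, 6.30 and 7.54 in wild-type arrays and 9.18, 8.72 and 8.71 in null arrays (2.32; limma, adjusted p = 0.00736), with wild-type replicate 3 the highest of its group. The clock gene Per1 (1.49), the sulfotransferase Sult1a1 (1.82), the EGF receptor inhibitor Errfi1 (1.43), Cebpb (0.73) and Nfkbia (0.62), which encodes an inhibitor of NF-κB, rose too. The hormone-regulated kinase Sgk1 read 6.14, 7.25 and 8.42 against 9.24, 8.90 and 9.37 (1.90; limma, adjusted p = 0.0358) and passed in 2 of the 6 fits that left out an array. The 5 members that did not pass were positive too. The group's count was 9 without null replicate 3 and 19 without null replicate 2. With Ucp1 as a covariate 11 passed at a median of 1.54, and against wild-type replicate 3 alone 4 passed, Klf9, Tsc22d3, Ddit4 and Pdk4, at a median of 1.48.

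The glucocorticoid receptor binds paired half-sites, and the search used the letters ACANNNTGT. Of the 15 genes that rose 14 had a promoter sequence, and 4, Glul, Map3k6, Mt1 and Sgk1, held the motif, or 28.6% against 6.76% of all genes. The share also lay above 6.76% in the 15 largest rises (16.7%) and in the fasting response genes that rose (11.1%). It was 4.76% in the cell cycle genes that fell and 0% in the other falling sets. Metallothionein Mt1 binds zinc, and glutamine synthetase Glul makes glutamine. Mt1 read 9.88, 9.67 and 9.23 in wild-type arrays and 11.02, 10.35 and 10.84 in null arrays (1.14; limma, adjusted p = 0.013). Glul read 9.53, 10.1 and 9.79 against 11.08, 10.49 and 11.12 (1.09; limma, adjusted p = 0.0131). In both genes the groups did not overlap, and null replicate 2 was the lowest null array. Each passed in 3 of the 6 fits that left out an array: both lost the call without null replicate 1 or null replicate 3, Mt1 also without wild-type replicate 2 and Glul also without wild-type replicate 1. The promoters of these 2 holders with the smallest p are shown with the match in capitals, in RefSeq on GRCm38.p6 at chr8:94178939-94179088 (plus strand) for Mt1, where it begins 92 bases before the start, and at chr1:153899779-153899928 (plus strand) for Glul, where it begins 25 bases before it.
Mt1: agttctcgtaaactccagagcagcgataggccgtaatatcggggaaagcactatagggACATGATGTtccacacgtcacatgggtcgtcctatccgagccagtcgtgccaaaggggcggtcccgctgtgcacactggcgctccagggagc
Glul: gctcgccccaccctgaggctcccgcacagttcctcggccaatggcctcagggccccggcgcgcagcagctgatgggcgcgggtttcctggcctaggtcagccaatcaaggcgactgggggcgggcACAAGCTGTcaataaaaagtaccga

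Part of the genes of fasting and low insulin rose as well. Of 20 tested members 11 rose, against 3.5% of all tested probe sets, 1 fell and 8 did not pass, with a median of 1.04. Klf15, a regulator of amino acid breakdown, read 6.48, 6.84 and 6.68 in wild-type arrays and 9.02, 7.78 and 9.22 in null arrays (2.01; limma, adjusted p = 0.00799). The insulin-restrained transcription factor Foxo1 read 7.06, 6.47 and 7.19 against 8.08, 8.29 and 8.17 (1.27; limma, adjusted p = 0.0069). Groups did not overlap in either gene, and null replicate 2 was the lowest null array for Klf15 and the highest for Foxo1. The insulin receptor substrate Irs2 (1.77), the repressor Bcl6 (1.79), the glucose uptake inhibitor Txnip (1.31), the sestrin Sesn1 (1.02), the muscle-wasting ubiquitin ligase Fbxo32 (0.74), Ccng2 (0.84) and Trib3 (1.15) rose beside Pdk4 and Trp53inp1. Asparagine synthetase Asns, which rises when amino acids are short, fell (-0.99). The count of rises was 7 without wild-type replicate 1 and 6 without wild-type replicate 2, null replicate 1 or null replicate 3. It was 3 with Ucp1 as a covariate, where the median was 0.95, and 2, Pdk4 and Trp53inp1, against wild-type replicate 3 alone.

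Some clock and early response genes rose, where 3.5% of all tested probe sets did. Of 13 tested circadian genes 6 rose and 0 fell, with a median of 0.70: Per1, Per2 (0.95), the deubiquitinase Usp2 (1.02), the PAR factor Tef (0.82), Nr1d2 (0.70) and Rora (0.68). Per1 read 6.29, 6.53 and 6.07 in wild-type arrays and 8.13, 7.35 and 7.89 in null arrays (limma, adjusted p = 0.00574). Per1 and Usp2 passed without each array in turn, and Per2 passed without none of them. The circadian count was 3 without wild-type replicate 1, wild-type replicate 3, null replicate 1 or null replicate 3, 2 without wild-type replicate 2, 3 with Ucp1 as a covariate and 0 against wild-type replicate 3 alone. Of 21 tested immediate early genes 5 rose, among them Fos (1.43) and Egr1 (1.07), and Ier5 fell (-0.60). That count of rises was 0 without wild-type replicate 1 or 2, 2 without null replicate 1 or 3, 3 without wild-type replicate 3 and 10 without null replicate 2. It was 0 with Ucp1 as a covariate and 0 against wild-type replicate 3 alone.

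Chaperones of the endoplasmic reticulum, where secretory proteins fold, fell in part. Of 25 tested genes of this group 10 fell, against 4.72% of all tested probe sets, 1 rose and 14 did not pass, with a median of -0.56. The calcium-binding chaperone Calr read 10.89, 10.79 and 10.78 in wild-type arrays and 9.46, 10.01 and 9.90 in null arrays (-1.03; limma, adjusted p = 0.00579). The master chaperone Hspa5 read 12.16, 12.15 and 12.13 against 11.21, 11.66 and 11.37 (-0.73; limma, adjusted p = 0.0113). The 3 wild-type arrays agreed closely in both genes and lay above all null arrays. Disulfide isomerases Pdia6 (-0.80) and Pdia3 (-0.77), the chaperones Hsp90b1 (-0.68), Hyou1 (-0.80) and Canx (-0.56), and Creld2 (-1.09), Manf (-0.80) and Sdf2l1 (-0.65) fell too, while the pseudokinase Trib3 rose. The count of falls was 3 without wild-type replicate 1, 2 without wild-type replicate 2, 5 without null replicate 1 and 4 without null replicate 3, 1 with Ucp1 as a covariate and 0 against wild-type replicate 3 alone. There the median was -0.39. Of 13 cytosolic and mitochondrial heat shock genes 3 fell, Hsph1 (-0.89), Hsp90aa1 (-0.65) and Hspd1 (-0.55). Hsph1 alone of these passed without each array in turn. The heat shock count was 1 without any 1 of the arrays other than null replicate 2, and 0 with Ucp1 as a covariate.

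Genes of mitochondrial energy metabolism are the class that ERR receptors are known to drive. Over all tested probe sets 3.5% rose and 4.72% fell. Of 71 oxidative phosphorylation genes 1 rose, the complex I subunit Ndufa6 (0.62), 1 fell, the ATP synthase gene Atp5g1 (-1.40), and the median was 0.10. Neither passed without wild-type replicate 1, wild-type replicate 2, null replicate 1 or null replicate 3. Of 24 tricarboxylic acid cycle genes 0 passed (limma), and 20 differences were positive, with a median of 0.30. Idh3a, a subunit of isocitrate dehydrogenase, read 9.95, 9.87 and 11.08 in wild-type arrays and 10.26, 11.54 and 9.98 in null arrays, with its highest values in the 2 arrays of highest Ucp1, wild-type replicate 3 and null replicate 2. Of 31 fatty acid oxidation genes 4 rose, Pdk4, Slc27a2, Ehhadh and the hydratase Echs1 (1.16), 28 differences were positive, and the median was 0.48.

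The medians of these groups changed with Ucp1 in the fit. With Ucp1 as a covariate the medians were -0.20 for oxidative phosphorylation, -0.17 for the tricarboxylic acid cycle and -0.03 for fatty acid oxidation, so all 3 changed sign. Against wild-type replicate 3 alone they were -0.13, -0.16 and 0.00. Leaving out null replicate 2, with no Ucp1 term, gave -0.105, 0.034 and 0.305, so the first changed sign there too. All 3 stayed positive when any other single array was left out. Fatty acid oxidation genes that rose numbered 9 without wild-type replicate 3, 1 without wild-type replicate 2, and 2 without wild-type replicate 1 or any 1 of the 3 null arrays. The medians of the cell cycle (-0.94), cholesterol (-0.74) and glucocorticoid (1.54) groups with Ucp1 as a covariate kept their sign. Whether groups differ in this respect was not tested, and other counts moved too, as those of the endoplasmic reticulum and immediate early groups show.

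**Figure D4:**
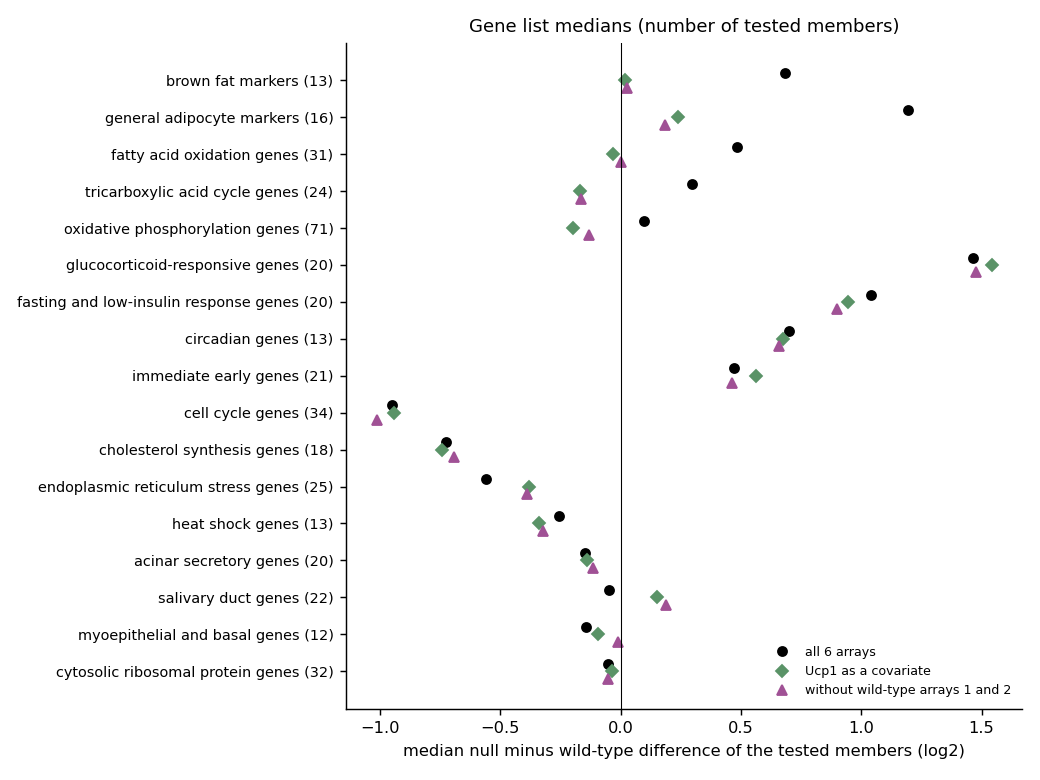
Median null minus wild-type difference (log2) of 17 gene groups in 3 fits: all 6 arrays, with Ucp1 as a covariate, and against wild-type replicate 3 alone. Cell cycle, cholesterol, glucocorticoid and fasting genes lie at like values in all 3 fits. General adipocyte markers fall from 1.19 to 0.24 and 0.18 and brown fat markers from 0.68 to 0.02 and 0.03. Ucp1 is itself a brown fat marker and defines both of the latter fits. The change of brown fat markers was therefore partly built in and tests nothing.

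Fat genes not particular to brown fat followed. Of 16 tested adipocyte markers 2 rose, against 3.5% of all tested probe sets, the triglyceride lipase Pnpla2 and hormone-sensitive lipase Lipe, and 15 differences were positive, with a median of 1.19. Pnpla2, which starts fat breakdown in many cell types, read 8.10, 7.49 and 8.76 in wild-type arrays and 9.75, 10.59 and 9.93 in null arrays (1.97; limma, adjusted p = 0.0071). Wild-type replicate 3 was the highest wild-type array and lay below all null arrays. Lipe (1.58) did not pass without wild-type replicate 1, wild-type replicate 2, null replicate 1 or null replicate 2. Without wild-type replicate 3 adipocyte markers that rose numbered 11, and without wild-type replicate 1, wild-type replicate 2, null replicate 1 or null replicate 2 they numbered 1. In fatty acid synthesis Scd1, Lpin1 and the acyltransferase Gpam (0.78) rose, the related desaturase Scd2 fell (-0.77), and 13 of 17 did not pass. Without wild-type replicate 3 the rises of that group numbered 5, and Gpam did not pass without wild-type replicate 1, wild-type replicate 2, null replicate 1 or null replicate 2.

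Glycolysis and hypoxia genes gave 5 and 3 calls, where 8.22% of all tested probe sets were called. Of 18 glycolysis genes Eno3 (1.11), Aldoa (0.89) and Pfkfb3 (1.65) rose, and hexokinase Hk1 (-0.78) and Tpi1 (-0.51) fell. None of these 5 passed when wild-type replicate 1, wild-type replicate 2 or null replicate 3 was left out, nor with Ucp1 as a covariate. Bnip3, a mitophagy receptor induced by low oxygen, read 8.68, 7.99 and 9.19 in wild-type arrays and 10.96, 10.99 and 10.84 in null arrays. The null arrays agreed closely and lay above all wild-type arrays (2.31; limma, adjusted p = 0.00164). It was 1 of 3 rises among 14 hypoxia genes, with Ndrg1 (0.76) and Pfkfb3, and the only one that passed without wild-type replicate 1, wild-type replicate 2, null replicate 1 or null replicate 3.

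Genes that define the gland were examined by cell type. Of 20 tested acinar secretory genes 1 fell and 0 rose, a share near the 4.72% of falls over all tested probe sets, with a median of -0.15. Of their differences 15 were negative and 5 positive. The summed linear signal of the 27 on the array was 50100, 50320 and 48620 in wild-type arrays. In null arrays it was 40330, 44100 and 47660, with no overlap. The gene that fell was Aqp5, the water channel of the acinar membrane, which read 9.15, 9.50 and 9.08 in wild-type arrays and 8.13, 8.54 and 8.59 in null arrays (-0.82; limma, adjusted p = 0.0234). It did not pass without wild-type replicate 1, wild-type replicate 2 or null replicate 1. The acinar transcription factor Bhlha15 read 9.68, 9.65 and 9.30 against 9.84, 9.47 and 9.84. Dcpp1, a secretory gene of the sublingual gland, read 9.19, 12.46 and 12.47 against 9.50, 8.58 and 12.29, so both genotypes held arrays of high and of low level. Amylase Amy1 lay under the filter and was not tested, at 2.89, 2.80 and 2.22 against 4.89, 5.29 and 4.96.

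Of 22 duct genes Klk1 and the epithelial factor Elf5 fell, where 4.72% of all tested probe sets did, and 20 did not pass. Elf5 read 9.68, 9.74 and 9.58 in wild-type arrays and 9.10, 8.95 and 9.02 in null arrays, a small difference with tight replicates (-0.64; limma, adjusted p = 0.0149) that did not pass without wild-type replicate 1, wild-type replicate 2 or null replicate 3. The duct keratin Krt19 read 6.48, 6.76 and 6.37 against 6.39, 6.28 and 6.23. Of 12 myoepithelial and basal genes 0 passed (limma). The summed linear signal of this group was 5881 to 6763 in wild-type arrays and 5239 to 5756 in null arrays, with no overlap. The basal keratins Krt5 (7.06, 7.56 and 7.30 against 6.76, 6.33 and 7.05) and Krt14 (7.73, 7.84 and 7.63 against 7.96, 7.83 and 8.12) differed by -0.59 and 0.24, neither passing. Of 15 gland development genes 1 rose, where 3.5% of all tested probe sets did. This was the neuregulin receptor Erbb3 (0.82), which passed in 1 of the 6 fits that left out an array. The summed linear signal of the group was 3116 to 3344 in wild-type arrays and 3499 to 4492 in null arrays, with no overlap.

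Ion and water transport is a main task of the gland. Of 21 tested genes 3 passed, against 8.22% of all tested probe sets. Aqp1, a water channel of blood vessels and many epithelia, read 6.99, 6.78 and 7.79 in wild-type arrays and 8.80, 9.55 and 8.81 in null arrays (1.87; limma, adjusted p = 0.00631). It passed without each array in turn. Beside Aqp5, the membrane carbonic anhydrase Car12 fell, from 8.76, 8.83 and 8.51 to 7.89, 8.20 and 8.02 (-0.66; limma, adjusted p = 0.0309), without passing when any 1 of wild-type replicates 1 and 2 and null replicates 1 and 3 was left out.

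No member of the ERR family or its coactivators passed. Esrrg was read by 1 dim probe set, at 6.57, 6.33 and 6.34 in wild-type arrays and 6.65, 6.29 and 6.22 in null arrays (-0.03; limma, adjusted p = 0.959). Since the labels do not state the deleted part, this probe set cannot serve as a check of genotype. ERRα, encoded by Esrra, read 6.67, 6.45 and 6.73 against 6.38, 6.98 and 6.42, and ERRβ, encoded by Esrrb, read 6.36, 5.52 and 5.53 against 4.98, 5.6 and 4.98 (-0.62; limma, adjusted p = 0.29). The coactivator PGC-1α, encoded by Ppargc1a, read 8.22, 8.52 and 8.17 against 9.95, 8.34 and 9.80 and was high in null replicates 1 and 3 only (1.06; limma, adjusted p = 0.112). Of 12 tested members of this group 0 passed (limma). The ERR element TCAAGGTCA stands within 250 bases before the start in 0.422% of all genes. It was in 0 of the 12 promoters found for the 15 largest rises and 0 of the 13 found for the 15 largest falls. Among the glucocorticoid-responsive genes that rose it was in 1 of 14, Sgk1 (7.14%). It was in 0 of 21 for the cell cycle genes and 0 of 6 for the cholesterol synthesis genes that fell. For the fasting response genes that rose it was in 0 of 9, and for DNA replication and repair genes that fell, described below, in 0 of 27.

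In the groups of this paragraph, which leave out fat and muscle, the shares called in both directions together lay below the 8.22% of all tested probe sets. By direction 3.5% of all tested probe sets rose and 4.72% fell. Of 60 mitochondrial ribosome genes 1 rose and 2 fell, all 3 lost without any 1 of the wild-type arrays, null replicate 1 or null replicate 3. Of 32 cytosolic ribosomal protein genes 0 passed (limma), with a median of -0.05 that was 0.03 after quantile normalization. The macrophage receptor Cd163 (0.92) was 1 rise among 15 macrophage and mast cell markers, and Thbs2 (0.64) 1 rise among 27 matrix genes, each called in few of the fits that left out an array. Of the tested lymphoid, endothelial, erythroid, nerve, fibroblast, thyroid, airway and hepatocyte markers 0 passed (limma).

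The salivary difference was then set against the mean difference of the other 4 tissues, fitted together over 30 arrays. The fit treats the arrays as independent. In every tissue Xist was low in wild-type replicate 3 and null replicate 1 and high in the rest. Same-numbered arrays of different tissues may therefore share an animal, and such sharing was not modelled. Of the 13576 probe sets 951, or 7.01%, differed between salivary tissue and the others (limma, adjusted p under 0.05), 383 upward and 568 downward. Of the 1116 probe sets called in salivary tissue 560, or 50.18%, differed from the other tissues in the same direction. The count was 462 without wild-type salivary replicate 2. Scd1 rose in salivary tissue and differed from the mean of the others by 4.38 ± 0.26 (SE; limma, adjusted p = 2.3e-11), with -1.76 in stomach, 0.26 in kidney, -0.46 in liver and 0.19 in brain. Psat1 differed by -2.08 (limma, adjusted p = 4.28e-05) and stood between -0.24 and 0.12 in the other tissues. Both passed under all 22 alternatives that were run.

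Other departures lay beside differences in another tissue. Rrm2 differed from the mean of the others by -2.84 at its dimmer probe set (limma, adjusted p = 2.06e-06), beside -1.64 in stomach, -0.53 in kidney, 0.03 in liver and -0.79 in brain, and Uhrf1 by -1.97 (limma, adjusted p = 2.79e-05), beside -1.10 in stomach, -0.15 in kidney, 0.22 in liver and -0.25 in brain. In stomach both passed on their own (limma, adjusted p = 0.01 and 0.0138). Idi1, at its dimmer probe set too, differed by -2.15 (limma, adjusted p = 8.32e-05), beside -1.61 in liver, where it also passed (limma, adjusted p = 0.00799). Klk1 departed from the mean of the others by -2.39 (limma, adjusted p = 0.0358). That mean includes a kidney difference of -5.68 that was not tested, because the probe set lay under the filter there. The call was lost in 9 of 22 alternatives, 4 of them fits without 1 salivary array: wild-type replicate 1, wild-type replicate 2, null replicate 2 and null replicate 3.

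**Figure D5:**
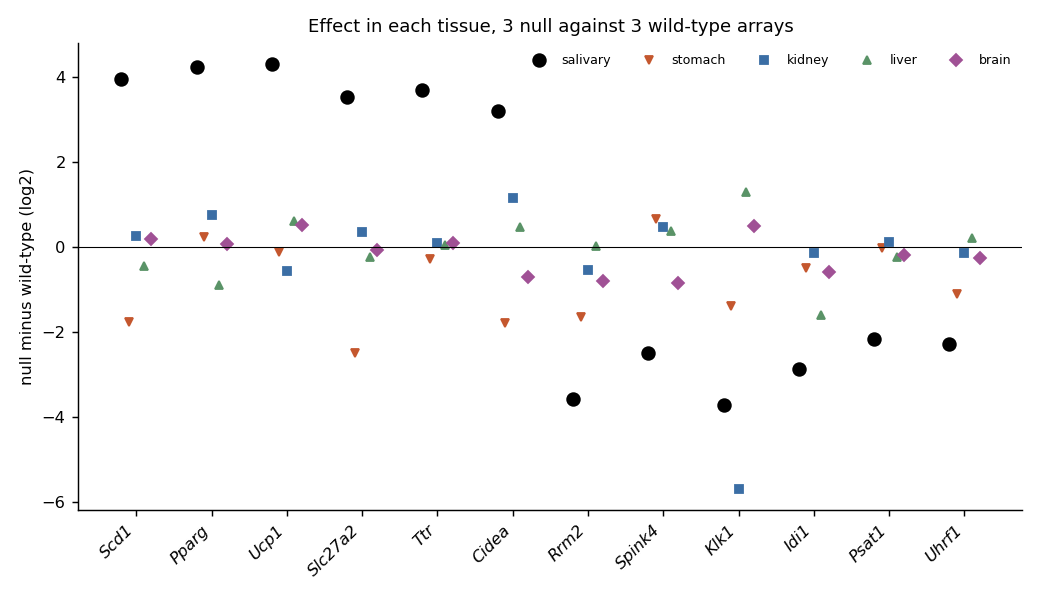
Null minus wild-type difference (log2) in each of the 5 tissues for the 12 genes whose salivary difference departed most from the mean of the other 4 tissues, 6 in each direction. Scd1, Pparg, Ucp1, Slc27a2, Ttr and Cidea have their highest point in salivary tissue, and Rrm2 and Uhrf1 are also below 0 in stomach.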

How the data were processed

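The data were 1 deposited table of log2 signals of 22690 probe sets on 30 arrays, of which 64 controls were left out. The authors computed the signals with MAS version 5, per the submitters' processing notes; no source states the scaling. Base 2 was settled from the values, since on that scale the 2% trimmed means of the arrays nearly coincide. Values were used as deposited, with no further normalization. The supplied probe table named 20380 probe sets by 1 symbol. The 691 with several and the 1555 without a symbol are not named.

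Probe sets with a mean over the 6 salivary arrays of at least the 40th percentile (5.37) were tested in R 4.3.3 with the package limma 3.58.1 (lmFit, then eBayes with trend = TRUE), with Benjamini-Hochberg adjustment over all 13576 and a threshold of 0.05. Differences are null minus wild-type. The comparison with the other tissues used a 10-group model of all 30 arrays, taken as independent. The number of arrays limits the precision. The steps were tested on simulated data.

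Gene groups numbered 36, with 792 of 915 entries found on the array, each gene being read by its brightest probe set. A further 4 groups were added after the values were seen. Members and groups were chosen with earlier results of these data known. Named genes are the 15 largest rises and falls that passed without overlap, 1 probe set per gene, group members that passed or had the 6 smallest p, cell type markers, the 6 largest departures each way from the other tissues, the ERR genes and Ucp1. Promoters came from RefSeq (GRCm38.p6), from 250 bases before to 50 after the start. Alternatives were a pseudocount, a floor, other filters, quantile normalization, equal medians, a 30-array fit, the replicate number as a block, covariates (Xist, Gapdh gap, Ucp1), no trend, array weights, a threshold of 0.1 and leaving out arrays or tissues. The fit without the 2 wild-type arrays of low Ucp1 was chosen after seeing the data.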

Additional observations from a re-analysis of the deposited data

Results flagged for a closer look

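For 12 genes the null minus wild-type difference in salivary tissue departed from the mean difference of brain, kidney, stomach and liver by a test of that departure itself (limma, 10-group model, 30 arrays). Departures are on the log2 scale with their SE.

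The desaturase Scd1 departed by 4.38 ± 0.26 (limma, adjusted p = 2.3e-11), and the call held under all 22 alternatives. The fat regulator Pparg departed by 4.20 ± 1.0 (limma, adjusted p = 0.0103), with wild-type salivary values of 1.92, 1.38 and 6.98, and lost the call without wild-type replicate 1 or 2. Ucp1 departed by 4.19 ± 1.29 (limma, adjusted p = 0.0469) and kept the call in 7 of 22 alternatives. Cidea departed by 3.41 ± 1.03 (limma, adjusted p = 0.042) and kept it in 10 of 22. Slc27a2 departed by 4.14 ± 1.09 (limma, adjusted p = 0.0193) and lost the call with array weights and without wild-type replicate 2 or null replicate 2. The thyroid hormone carrier Ttr departed by 3.70 ± 0.70 (limma, adjusted p = 0.00165). It read 5.88, 4.01 and 2.12 in wild-type arrays and 8.88, 5.6 and 8.60 in null salivary arrays, where null replicate 2 lay within the wild-type range, and its difference within salivary tissue, 3.69, did not pass (limma, adjusted p = 0.0548).

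Downward, Rrm2 departed by -2.84 ± 0.30 (limma, adjusted p = 2.06e-06) and Spink4 by -2.66 ± 0.67 (limma, adjusted p = 0.0152). The call of Spink4 was lost with the replicate block, with array weights, without wild-type replicate 2 and without the stomach. Klk1 departed by -2.39 ± 0.70 (limma, adjusted p = 0.0358) and kept the call in 13 of 22 alternatives. Idi1 (-2.15), Psat1 (-2.08) and Uhrf1 (-1.97) kept it in all 22.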

How the results depend on the processing

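The count of 1116 probe sets (475 higher, 641 lower) came to 764 to 1439 under a pseudocount of 16, a floor of 32, no filter, quantile normalization, equal medians, a 60th percentile filter, no trend, array weights, and Xist or the Gapdh gap as a covariate. It moved by over 1.5 times to 2198 (988 higher, 1210 lower) in the fit of all 30 arrays, 1852 (806 and 1046) at a threshold of 0.1, 276 (112 and 164) with Ucp1 as a covariate and 26 (18 and 8) without the 2 wild-type arrays of low Ucp1. Leaving out each array gave 317 to 1359 (127 to 646 higher, 190 to 713 lower). With the replicate number as a block 515 passed (215 higher, 300 lower), 504 of them among the 1116. Deviations of same-numbered arrays correlated at 0.14, -0.24 and -0.18, and those of other pairs at -0.14 to 0.28. With 3 arrays per genotype these values cannot decide whether the numbers pair the arrays. The departure from other tissues (951) was 1504 at a threshold of 0.1, 462 to 935 without each salivary array, 679 with the replicate block and 712 to 1272 otherwise. Ucp1 (4.30) passed in the fit of all 30 arrays (4.30; limma, adjusted p = 0.0102) and ranged from 2.63 to 6.68 without each array. It passed without wild-type replicate 3 (limma, adjusted p = 0.000451). In the other fits, apart from that without the 2 wild-type arrays of low Ucp1, its adjusted p lay between 0.0716 and 0.413 (limma). With those 2 arrays left out the Ucp1 difference was -0.45. Its own level as a covariate could not be fitted for it. Of 195 named probe sets that passed, 79 did so without each array in turn and none changed direction. Of those calls 181 were lost without the 2 arrays of low Ucp1, 117 with Ucp1 as a covariate, 80 with the block, 52 without the trend, 50 without the filter, 48 with the Gapdh gap, 34 with Xist, 27 with equal medians and 27 to 108 without a single array, and 0 to 10 in the others. Among named genes that did not pass, Esrrg (-0.03) turned to 0.038 with the Gapdh gap, 0.017 with Ucp1 as a covariate and 0.047 without the 2 arrays of low Ucp1, and ranged from -0.16 to 0.057 without each array. Esrra (-0.02) turned to 0.11 with the Gapdh gap and ranged from -0.22 to 0.083 without each array. Without the 2 arrays of low Ucp1 Cidea turned to -0.027, Cox7a1 to -0.26 and Idh3a to -0.49. With Ucp1 as a covariate Cox7a1 turned to -0.15 and Idh3a to -0.53, and Idh3a ranged from -0.18 (without null replicate 2) to 0.68 without each array. The cause of these shifts was not tested. Probe sets under the 60th percentile have no value under that filter. Null or wild-type levels under the filter bound the folds of dim genes.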

Other observations

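Gene groups drawn up after the values were seen described further classes, and their counts support nothing beyond these arrays. Of 44 tested DNA replication and repair genes 31 fell, against 4.72% of all tested probe sets, 0 rose, and the median was -1.04. The replication licensing factor Cdt1 read 9.95, 9.87 and 9.90 in wild-type arrays and 8.24, 8.53 and 8.52 in null arrays (-1.48; limma, adjusted p = 0.00066), and the primase Prim1 read 9.17, 9.18 and 9.31 against 7.66, 8.12 and 7.81 (-1.36; limma, adjusted p = 0.00179). In both genes all wild-type arrays lay above all null arrays. Cdc45 (-1.80), Rpa2 (-1.55), Dut (-1.58) and Dnmt1 (-1.08) fell and passed without each array in turn. The count was 18 without wild-type replicate 2, 17 with Ucp1 as a covariate and 0 against wild-type replicate 3 alone, where the median was -1.14.

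Of 30 genes of amino acid synthesis and tRNA charging 12 fell, against 4.72% of all tested probe sets, and 0 rose. Their median was -0.48. Phgdh, the first enzyme of serine synthesis, read 9.89, 9.78 and 9.67 in wild-type arrays and 8.43, 8.82 and 8.80 in null arrays (-1.10; limma, adjusted p = 0.0036). It fell beside Psat1 and Psph (-1.03), so all 3 enzymes of that short pathway fell. The tRNA synthetases Aars (-0.99) and Eprs (-0.77) fell too. The count was 7 without wild-type replicate 1 or 3, 3 without wild-type replicate 2, 5 without null replicate 1, 6 without null replicate 3, 3 with Ucp1 as a covariate and 0 against wild-type replicate 3 alone.

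Of 40 autophagy and lysosome genes 14 rose, against 3.5% of all tested probe sets, and 0 fell, with a median of 0.46. Besides Bnip3 the rises included the cathepsin Ctsf (1.32), the ATG8 relatives Gabarapl1 (1.15) and Map1lc3b (0.72), the mitophagy kinase Pink1 (0.73) and the starter kinase Ulk1 (0.96). The count was 7 without wild-type replicate 1, 2 without wild-type replicate 2, 8 without wild-type replicate 3, 6 without null replicate 1 and 4 without null replicate 3, 3 with Ucp1 as a covariate and 1 against wild-type replicate 3 alone. Of 43 RNA splicing genes 11 fell, against 4.72% of all tested probe sets, among them Srsf2 (-1.21), Srsf3 (-0.92) and Hnrnpab (-0.85). Hnrnpa1 rose (0.95). Falls numbered 4 to 7 when an array was left out, and 1 with Ucp1 as a covariate.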
